A study of Mus musculus with 27 samples.

Results

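EMT transcription factors are the small set of DNA-binding proteins that switch epithelial cells towards a mesenchymal state. The 10 genes followed here were Snai1, Snai2, Zeb1, Zeb2, Twist1, Twist2, Tcf3, Tcf4, Hmga2 and Sox4, taken by gene name. All 10 had a row among the 23295 genes of the parental expression table and among the 24247 genes of the shRNA table. TGF-β raised 8 of them in parental cells, lowered Twist2 and left Twist1 without a detectable change. Of all genes tested there 54.5% were called at 8 h (22.4% higher) and 70.5% at 24 h (33.4% higher). Cells with less lamin B1 had 13 called differences from control cells, and 12 were lost under another setting or with a library left out. The 13 calls were 4, 4 and 5 of 9 members tested at 0, 8 and 24 h. Of all genes 19.7%, 35.8% and 28.3% were called at these times.

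Epithelial to mesenchymal transition (EMT) is the process in which epithelial cells lose their junctions and polarity and gain motility. Snail and Zeb proteins are zinc-finger repressors that bind E-box motifs in the promoters of epithelial genes such as E-cadherin, whereas Twist proteins and the E proteins encoded by Tcf3 and Tcf4 are helix-loop-helix factors that bind E-boxes as dimers. Hmga2 is an architectural chromatin protein and Sox4 an HMG-box factor, and both are known to act upstream of other members in TGF-β-treated mammary epithelial cells.

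The cells were NMuMG, a line from normal mouse mammary gland epithelium, either untreated or given TGF-β for 8 or 24 h at a concentration that the labels state as 1 to 5 ng/ml. RNA-seq was done on parental cells (2 libraries for each of 3 times) and on cells carrying an irrelevant shRNA (control) or an shRNA against lamin B1 (knockdown, KD), again with 2 libraries for each time. The study's methods call the 2 libraries biological replicates. Lamin B1 ChIP-seq and ATAC-seq, which maps accessible chromatin, were done on parental cells with 1 library for each time. Control and KD cells were both virus-infected. P-values measure the spread between these libraries.

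The expression values were FPKM, fragment counts scaled to transcript length and to the number of mapped fragments, which allow levels of different genes to be set side by side. No read counts came with them, so the depth is unknown. The 2 libraries of each group correlated at r = 0.983 to 0.994 over genes on the log2(FPKM + 1) scale. Lmnb1, the target of the shRNA, was at 29.2 and 36.5 FPKM in untreated control cells and at 9.01 and 9.27 FPKM in untreated KD cells, at 32.8 and 32.1 against 7.79 and 8.14 FPKM after 8 h, and at 18.4 and 17.9 against 4.37 and 7.52 FPKM after 24 h. Every KD library lay below every control library of the same time. Of 10 mammary epithelial markers 5 to 7 reached a mean of 1 FPKM in each group, and Cldn3, Cldn7 or both were listed at 0 in all libraries of each group other than untreated parental cells. The summed level of 6 fibroblast markers was 5.32 to 8.09 FPKM in parental libraries and 0.0837 to 1.94 FPKM in shRNA libraries, Lum and Thy1 being listed at 0 in all of the latter. The summed FPKM of all genes was 799632 to 833963 in control and 625801 to 754814 in KD libraries at 8 h, and the part of this difference in the results was not tested. The parental and shRNA tables were normalized separately, so tests were made only within a table.

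In untreated parental cells the members fell into an abundant and a scarce set. Hmga2 led with a mean of 44.9 FPKM, followed by Sox4 at 36.2 and Tcf3 at 33.3 FPKM. Twist2 (9.24 FPKM), Zeb1 (5.52 FPKM) and Tcf4 (3.71 FPKM) came next, and the ranges of these 6 genes did not overlap with their neighbours. Snai1 (2.11 FPKM), Snai2 (1.98 FPKM) and Zeb2 (1.97 FPKM) could not be ordered, since the libraries overlapped, and Twist1 was lowest at 1.41 FPKM. After 8 h Snai1 had moved up to the fourth place at 14.9 FPKM, and after 24 h Sox4 (69.2 FPKM) stood above Hmga2 (57.2 FPKM). In untreated control cells the ranges of Sox4 (41.7 and 56.6 FPKM) and Hmga2 (38.1 and 51.5 FPKM) overlapped, and Twist1 was close to the limit of detection at 0.0230 and 0.122 FPKM.

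**Figure D1:**
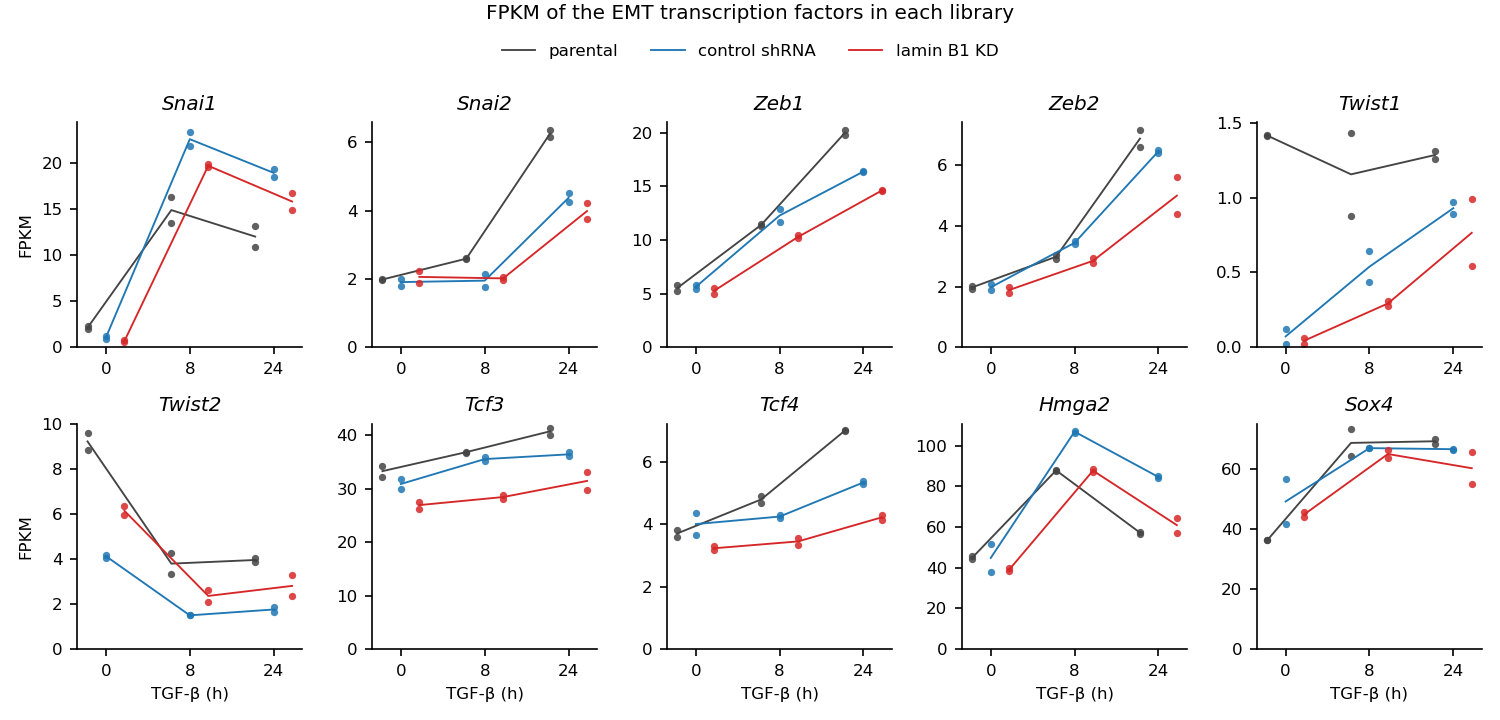
FPKM of each of the 10 EMT transcription factors (y axis, linear, from 0) against hours of TGF-β (x axis, times evenly spaced) in parental cells (grey), control shRNA cells (blue) and lamin B1 KD cells (red). Points are single libraries, 2 for each group, and lines join group means. Snai1 and Hmga2 were highest at 8 h in all 3 kinds of cells, Snai2, Zeb1 and Zeb2 at 24 h, and Twist2 fell in all 3.

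Which members responded to TGF-β was tested with limma on log2(FPKM + 1), with p-values adjusted over all genes tested, and a gene was called at an adjusted p under 0.05. In parental cells 9 of the 10 members were called at 8 h, 8 higher and 1 lower, in a comparison where 54.5% of all tested genes were called, 22.4% higher and 32.1% lower. At 24 h against untreated cells 9 of 10 were called, again 8 higher and 1 lower, beside 70.5% of all genes (33.4% higher, 37.1% lower). Between 8 and 24 h 6 of 10 were called, 5 higher and 1 lower, beside 51.8% (27.7% higher, 24% lower). On the log2 scale the members had a median difference of 0.36 after 8 h and 0.84 after 24 h, against -0.046 and -0.019 for all genes tested. In bulk RNA, a change in the number of cells that express a gene and a change of its RNA per cell cannot be told apart.

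Twist1 did not pass the filter of 1 FPKM in 2 libraries in the shRNA table, which left 9 members tested there. In control cells 7 of 9 were called at 8 h (6 higher, 1 lower, beside 64.3% of all genes, 19.4% higher and 44.9% lower) and 9 of 9 at 24 h (8 higher, 1 lower, beside 70.7%, 25.5% higher and 45.1% lower). In KD cells 6 of 9 were called at 8 h (5 higher, 1 lower, beside 67.8% of all genes, 23% higher and 44.8% lower) and 9 of 9 at 24 h (8 higher, 1 lower, beside 71.9%, 28.6% higher and 43.3% lower). The median of all genes was itself below 0 in these comparisons, by -0.14 and -0.13 in control and by -0.13 and -0.10 in KD cells at 8 and 24 h, and quantile normalization brought it to between -0.028 and -0.0035. With that scaling the share of all calls that were higher went from 30.2 to 46.0% (control, 8 h) and 36.1 to 49.99% (control, 24 h). In KD cells it went from 33.9 to 46.0% (8 h) and 39.8 to 50.1% (24 h). At 8 h 8 of 9 members were then called in both kinds of cells. Beside them stood 6706 of 11450 genes called in control and 7468 of 11450 in KD cells. No called member changed direction with that scaling.

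**Figure D2:**
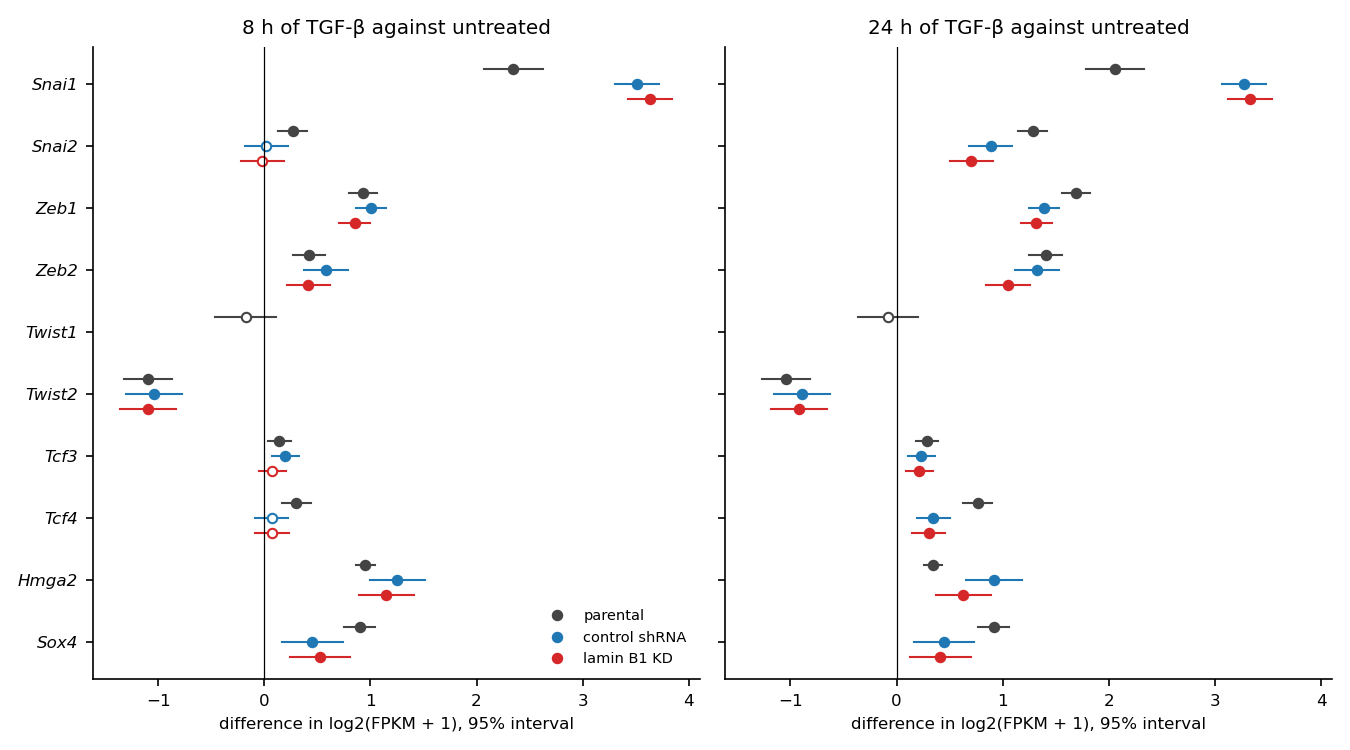
Difference in log2(FPKM + 1) between TGF-β-treated and untreated cells (x axis) for each member (y axis) at 8 h (left) and 24 h (right), in parental (grey), control shRNA (blue) and lamin B1 KD cells (red). Points are limma estimates from 2 libraries a group, bars their 95% intervals, and filled points are called. Twist2 lies left of 0 in all 6 comparisons and Snai1 furthest to the right in all 6, and Twist1 has no value in the shRNA cells.

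Lamin B1 ChIP and ATAC peaks were looked for between 2500 bp upstream of each transcription start site (TSS) and the 3′ end of the gene on mm9. A lamin B1 peak lay at 3 of the 10 members in untreated cells (Snai1, Hmga2 and Sox4), at 5 after 8 h (Zeb2, Twist2, Tcf3, Hmga2 and Sox4) and at 6 after 24 h (Snai1, Zeb1, Twist2, Tcf3, Hmga2 and Sox4). Of 21177 genes placed on the same build, 19.9%, 38.9% and 29.5% had such a peak at these times, and of those with a mean of at least 1 FPKM 34.1%, 57.2% and 44.7%. An ATAC peak lay at 7 members in untreated cells, at 6 after 8 h and at 9 after 24 h, against 37%, 32.9% and 60% of all placed genes and 65.9%, 57% and 93.9% of the expressed ones. With lists cut to equal length the ATAC counts were 7, 6 and 5, lowest and not highest at 24 h. The share of all genes under that cut was not counted, so this order is no result about the members. Within 500 bp of the TSS, 3, 4 and 6 members had a lamin B1 peak in the order of time, beside 15.5%, 30.5% and 23.9% of all placed genes, and 6, 3 and 9 had an ATAC peak, beside 30.6%, 25% and 47.1%. The lists differed in length, with 4645, 10484 and 7083 lamin B1 peaks and 9782, 10340 and 33811 ATAC peaks in the order of time. With 1 library for each list there is no replicate check, and a missing peak says only that none was called. The ChIP was made on lightly sonicated chromatin enriched for euchromatin.

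**Figure D3:**
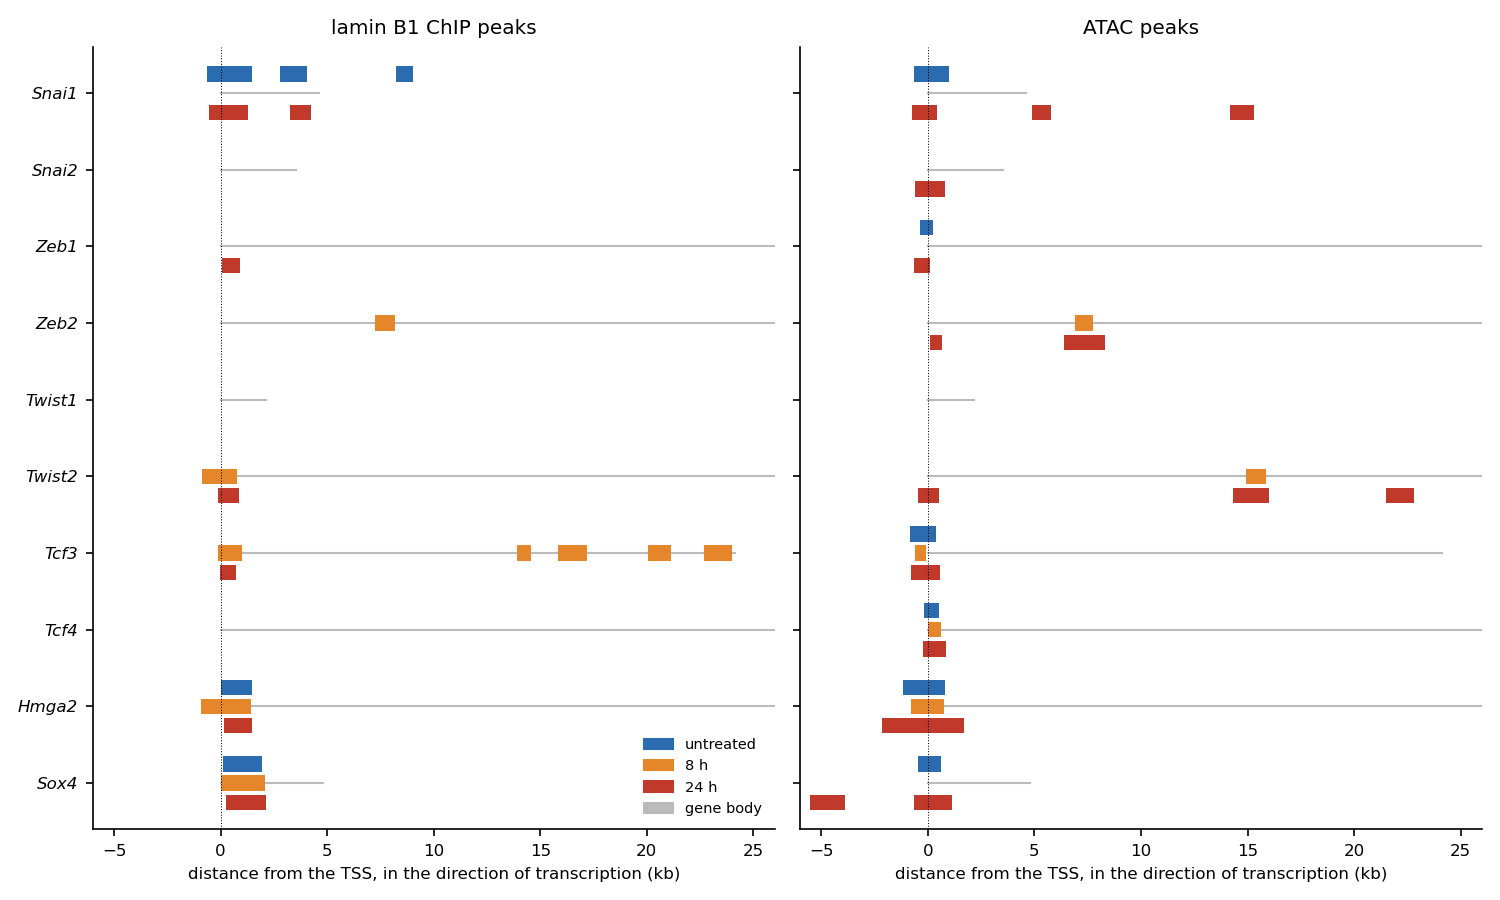
Positions of lamin B1 ChIP peaks (left) and ATAC peaks (right) at the 10 members (y axis) by distance from the TSS in kb, in the direction of transcription (x axis, from 6 kb upstream to 26 kb downstream), in untreated cells (blue) and after 8 h (orange) or 24 h (red) of TGF-β. Grey lines are gene bodies, and peaks further inside Zeb1, Zeb2, Tcf4 and Hmga2 lie outside the window. Hmga2 and Sox4 have lamin B1 peaks at all 3 times, Snai1 at 0 and 24 h only, and Snai2, Twist1 and Tcf4 at none.

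Snai1 and Snai2 encode the Snail and Slug repressors, which recruit corepressors to E-boxes of epithelial genes. In parental cells Snai1 measured 1.93 and 2.29 FPKM when untreated, 16.3 and 13.5 FPKM after 8 h and 13.1 and 10.9 FPKM after 24 h. All treated libraries lay above the untreated ones, and the 24 h libraries lay just below those of 8 h. The mean rose 7.04-fold at 8 h and 5.68-fold at 24 h, or by 2.35 ± 0.12 (SE) and 2.06 ± 0.12 on the log2(FPKM + 1) scale (limma adjusted p = 3.32e-05 and 6.54e-06). Of the size of all changes at 8 h, that of Snai1 was at the percentile 99.7. The step from 8 to 24 h (-0.29 ± 0.12) missed the threshold at an adjusted p of 0.0739, and was called when library b of 8 h (-0.41, adjusted p = 0.0252) or library a of 24 h (-0.41, adjusted p = 0.0445) was left out.

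In control cells Snai1 was at 0.889 and 1.25 FPKM when untreated, at 23.3 and 21.9 FPKM after 8 h and at 19.3 and 18.5 FPKM after 24 h. KD cells gave 0.587 and 0.749 FPKM, then 19.5 and 19.9 FPKM, then 16.7 and 14.9 FPKM. Both kinds of cells started below the parental level and reached a higher one, in tables that were normalized separately. The rise at 8 h was 3.52 ± 0.091 in control (limma adjusted p = 1.83e-08) and 3.64 ± 0.091 in KD cells (adjusted p = 1.13e-08) on the log2(FPKM + 1) scale, which understates the change of a gene this low in untreated cells. The ratio of mean FPKM was 21.1 in control and 29.5 in KD cells, over a denominator near or below 1 FPKM.

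Snai2 moved later. Its parental values were 1.97 and 1.997 FPKM, then 2.61 and 2.57 FPKM after 8 h, then 6.15 and 6.36 FPKM after 24 h. The groups did not overlap, and the mean was 1.31-fold higher at 8 h (0.27 ± 0.057, limma adjusted p = 0.00687) and 3.15-fold higher at 24 h (1.28 ± 0.057, adjusted p = 2.74e-06). In shRNA cells no rise was called at 8 h, when control libraries held 1.76 and 2.14 FPKM and KD libraries 2.05 and 1.98 FPKM. At 24 h Snai2 rose to 4.51 and 4.24 FPKM in control (0.89 ± 0.088, adjusted p = 2.09e-05) and to 3.74 and 4.23 FPKM in KD cells (0.71 ± 0.088, adjusted p = 9.04e-05).

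The Snai1 gene (chr2:167363695-167368314 on mm9, plus strand) had lamin B1 and ATAC peaks in the lists of 0 and 24 h and none in those of 8 h. The untreated lamin B1 peak at its TSS (chr2:167363066-167365147) had a score of 366, at or above 99.7% of that list, and the 24 h peak (chr2:167363157-167364991) a score of 197, at or above 93.4%. A smaller peak lay inside the gene at both times, with scores of 156 and 73.7. At 8 h the nearest lamin B1 peak was 57465 bp from the TSS. ATAC peaks covered the TSS in untreated cells (scores of 59.6 and 56.5) and at 24 h (score of 200), and at 8 h the nearest was 37827 bp away. For ATAC this depended on the lists: with a score of at least 100 Snai1 had no peak at 0 h, and with lists of equal length it had none at 24 h. Snai1 RNA was highest at 8 h.

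The promoter of Snai1 is shown because the peaks of 0 and 24 h covered all 300 of its bases and those of 8 h none. It runs from 250 bases before the start to 50 after it, is taken from RefSeq on GRCm38.p6 (chr2:167537945-167538244, plus strand) and matched mm9 exactly once on its chromosome, at chr2:167363445-167363744. Capitals mark the E-box CAGGTG, the type bound by Snail and Zeb, here read on the other strand as CACCTG, with its first base 126 bases upstream of the start.
Snai1: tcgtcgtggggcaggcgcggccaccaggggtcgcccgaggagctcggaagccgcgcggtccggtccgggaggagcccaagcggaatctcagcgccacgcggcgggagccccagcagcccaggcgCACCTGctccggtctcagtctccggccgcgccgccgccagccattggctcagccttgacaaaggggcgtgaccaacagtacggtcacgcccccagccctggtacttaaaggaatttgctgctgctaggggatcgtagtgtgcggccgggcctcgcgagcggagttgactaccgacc
Among the 7 members with a printed or searched promoter (Snai1, Zeb2, Twist1, Twist2, Tcf3, Hmga2 and Sox4), Snai1 was the one that held this motif, which was found on either strand in 20.3% of 32544 promoters of the same length. The E-box CANNTG, which includes it, was in 72.3% of them. Snai2 (chr16:14705945-14709488, plus strand) lacked a lamin B1 peak throughout, and its single ATAC peak, over the TSS with a score of 223, was in the 24 h list, the time at which its RNA was highest. With lists of equal length Snai2 had no ATAC peak at 24 h.

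Zeb1 and Zeb2 encode the zinc-finger E-box repressors that hold epithelial genes and the miR-200 family silent. Zeb1 measured 5.24 and 5.79 FPKM in untreated parental cells, 11.5 and 11.3 FPKM after 8 h and 20.2 and 19.8 FPKM after 24 h. No libraries of different times overlapped, and the mean was 2.07-fold higher at 8 h (0.93 ± 0.056, limma adjusted p = 4.46e-05) and 3.62-fold higher at 24 h (1.69 ± 0.056, adjusted p = 9.86e-07). The further rise from 8 to 24 h was 0.76 ± 0.056 (adjusted p = 6.02e-05). Control cells went from 5.81 and 5.44 FPKM to 12.9 and 11.7 FPKM and then 16.3 and 16.4 FPKM, and KD cells from 4.97 and 5.56 FPKM to 10.1 and 10.4 FPKM and then 14.7 and 14.6 FPKM. The rise at 24 h was 1.39 ± 0.062 in control and 1.32 ± 0.062 in KD cells (adjusted p = 1.40e-07 and 1.63e-07).

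Zeb2 was the scarcer of the pair and its increase came mostly after 8 h. In parental cells it went from 1.92 and 2.03 FPKM to 2.92 and 3.05 FPKM after 8 h and 7.15 and 6.59 FPKM after 24 h. The 3 times did not overlap, with differences from untreated cells of 0.42 ± 0.065 (limma adjusted p = 0.00161) and 1.40 ± 0.065 (adjusted p = 2.99e-06). Control cells held 1.88 and 2.07 FPKM, then 3.39 and 3.49 FPKM, then 6.41 and 6.50 FPKM. KD cells held 1.98 and 1.79 FPKM, then 2.93 and 2.76 FPKM, then 5.60 and 4.39 FPKM. The rise at 24 h was 1.33 ± 0.091 in control and 1.05 ± 0.091 in KD cells (adjusted p = 1.78e-06 and 7.70e-06).

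Zeb2 (chr2:44839154-44972915, minus strand) had its lamin B1 peak of 8 h (chr2:44964740-44965664, score of 65.7) 7251 to 8175 bp inside the gene, where ATAC peaks were also called at 8 h (chr2:44965179-44965995, score of 77.4) and at 24 h (chr2:44964622-44966544, score of 249). The annotation places a transcript start 310 bp from the centre of that 8 h ATAC peak, and 1 of the 4 RefSeq promoters of Zeb2 lies there. It is shown because, in the full lists, the ATAC peaks covered 248 of its 300 bases at 8 h and 300 at 24 h and none in untreated cells, while no lamin B1 peak reached it. It is on the minus strand of GRCm38.p6 at chr2:45110228-45110527 and holds none of the motifs searched, so it has no capitals.
Zeb2 inner promoter: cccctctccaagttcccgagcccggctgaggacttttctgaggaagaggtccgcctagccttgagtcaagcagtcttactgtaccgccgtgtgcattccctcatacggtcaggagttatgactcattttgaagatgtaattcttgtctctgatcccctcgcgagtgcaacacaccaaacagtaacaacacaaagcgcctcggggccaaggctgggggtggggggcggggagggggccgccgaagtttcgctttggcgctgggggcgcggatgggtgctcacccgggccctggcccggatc
The annotated 5′ end of the gene had an ATAC peak at 24 h only, with a score of 52.5, close to the lowest of that list. With a score of at least 100 Zeb2 had no ATAC peak at 8 h, and with lists of equal length it had none at 24 h. Its lamin B1 peak of 8 h was absent under both settings.

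At Zeb1, on chromosome 18, a lamin B1 peak with a score of 78.9 lay just inside the TSS at 24 h only, and ATAC peaks lay at the TSS in untreated cells and at 24 h (scores of 60.9 and 80.6). Inside the gene, near its 3′ end, an ATAC peak was called at all 3 times. With lists of equal length neither this peak nor the one at the TSS was present at 24 h.

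Twist1 and Twist2 encode closely related helix-loop-helix factors of the mesoderm, and here they parted. Twist2 was the member that fell. In parental cells it went from 9.62 and 8.86 FPKM to 3.35 and 4.25 FPKM after 8 h and 4.04 and 3.89 FPKM after 24 h. Both untreated libraries lay above all treated ones, and the mean at 8 h was 41.1% of the untreated mean (-1.10 ± 0.095, limma adjusted p = 0.000146) and at 24 h 42.9% (-1.04 ± 0.095, adjusted p = 6.09e-05). Control cells went from 4.06 and 4.20 FPKM to 1.497 and 1.505 FPKM and then 1.86 and 1.66 FPKM, and KD cells from 5.96 and 6.34 FPKM to 2.10 and 2.63 FPKM and then 2.34 and 3.28 FPKM. The fall at 8 h was -1.04 ± 0.12 in control and -1.09 ± 0.12 in KD cells (adjusted p = 6.78e-05 and 3.90e-05), and the fall at 24 h was -0.89 and -0.92.

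Twist1, often used as a marker of EMT, stayed near 1 FPKM in parental cells, with 1.42 and 1.41 FPKM when untreated, 1.43 and 0.876 FPKM after 8 h and 1.31 and 1.26 FPKM after 24 h. The differences from untreated cells were -0.18 ± 0.12 at 8 h (limma adjusted p = 0.253, 95% interval -0.46 to 0.11) and -0.080 ± 0.12 at 24 h (adjusted p = 0.574, 95% interval -0.36 to 0.20). The 8 h value rested on library b, and without library a of 8 h it was -0.36 (adjusted p = 0.0104) and without library b 0.012. In shRNA cells Twist1 was far lower when untreated, and went from 0.0230 and 0.122 FPKM to 0.642 and 0.435 FPKM after 8 h and 0.888 and 0.970 FPKM after 24 h in control cells, and from 0.0647 and 0.0223 FPKM to 0.310 and 0.275 FPKM and then 0.542 and 0.987 FPKM in KD cells. It did not enter the main test. With no filter on low values the limma difference at 8 h was 0.52 ± 0.12 in control (adjusted p = 0.00804) and 0.31 ± 0.12 in KD cells, where it was not called (adjusted p = 0.0634), and that at 24 h was 0.85 ± 0.12 in control (adjusted p = 0.000485) and 0.75 ± 0.12 in KD cells (adjusted p = 0.000949). The summed fibroblast markers were at 5.32 to 5.82 FPKM in untreated parental cells, at 0.0837 to 0.171 FPKM in untreated control cells and at 1.28 to 1.49 FPKM in control cells after 24 h. In parental cells they were at 8.05 to 8.09 FPKM after 24 h, where Twist1 was not called. At 8 h they were higher in KD (0.735 to 0.768 FPKM) than in control cells (0.446 to 0.505 FPKM), and Twist1 was lower in KD cells. The part of these markers in the Twist1 values was not tested.

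Twist2 (chr1:93698038-93744605, plus strand) had no lamin B1 peak in untreated cells, when its RNA was highest, and a peak over the TSS at 8 h (chr1:93697150-93698805, score of 144, at or above 85.6% of the list) and at 24 h (chr1:93697937-93698897, score of 79.9). Its TSS had an ATAC peak at 24 h only (score of 154.5), and an intron peak about 15 kb downstream was called at 8 h (score of 54.2) and 24 h (score of 394). With lists of equal length the TSS peak of 24 h was absent and that intron peak of 24 h stayed. No lamin B1 or ATAC peak lay at Twist1 (chr12:34642536-34644682, plus strand) at any time, the nearest being 82927 bp from its TSS. Their promoters are set side by side as the pair that had peaks and the pair member that had none. Both are on the plus strand of GRCm38.p6, Twist2 at chr1:91801211-91801510 and Twist1 at chr12:33957421-33957720, and capitals in Twist1 mark CAGAC, a short element bound by Smads that Twist2 lacks, which was in 49.5% of all promoters on either strand.
Twist2: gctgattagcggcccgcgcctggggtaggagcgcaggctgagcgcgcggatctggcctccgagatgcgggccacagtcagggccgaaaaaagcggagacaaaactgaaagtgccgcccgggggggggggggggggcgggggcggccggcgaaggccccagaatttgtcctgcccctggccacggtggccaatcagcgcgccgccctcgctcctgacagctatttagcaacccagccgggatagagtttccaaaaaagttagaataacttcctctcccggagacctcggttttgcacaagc
Twist1: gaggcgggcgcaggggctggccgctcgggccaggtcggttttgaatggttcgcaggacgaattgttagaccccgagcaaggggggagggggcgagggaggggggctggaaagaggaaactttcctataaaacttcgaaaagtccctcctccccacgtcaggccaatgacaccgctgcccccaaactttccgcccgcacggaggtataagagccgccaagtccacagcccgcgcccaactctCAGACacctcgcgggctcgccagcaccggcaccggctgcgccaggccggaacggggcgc
The lamin B1 peak of 8 h covered all 300 bases of the Twist2 promoter and that of 24 h covered 151. Neither promoter held an E-box of the form CANNTG.

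Tcf3 and Tcf4 encode E proteins, the dimer partners of Twist and the targets of Id inhibitors. The symbol Tcf3 is also in use for a Wnt effector that these tables list as Tcf7l1. Tcf3 was abundant and changed little, from 34.3 and 32.3 FPKM in untreated parental cells to 36.9 and 36.7 FPKM after 8 h and 41.4 and 40.1 FPKM after 24 h. The times did not overlap, and the differences from untreated cells were 0.14 ± 0.044 (limma adjusted p = 0.0296) and 0.28 ± 0.044 (adjusted p = 0.000926). In a fit of only the groups compared the 8 h difference was not called. The 8 h call was lost without library b of untreated cells (0.10, adjusted p = 0.140) or library a (0.14, adjusted p = 0.0801) or b (0.15, adjusted p = 0.0599) of 8 h. The step from 8 to 24 h (0.14 ± 0.044, adjusted p = 0.0321) was lost without any 1 of the 4 libraries compared, at adjusted p-values from 0.0659 to 0.172. In shRNA cells Tcf3 ranged from 29.9 to 36.8 FPKM in control and from 26.3 to 33.1 FPKM in KD libraries.

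The rise of Tcf3 at 24 h was 0.23 ± 0.056 in control (limma adjusted p = 0.00493) and 0.21 ± 0.056 in KD cells (adjusted p = 0.00716), the latter lost without KD replicate 1 of untreated cells (0.18, adjusted p = 0.0560). At 8 h it was 0.20 ± 0.056 in control cells (adjusted p = 0.0128), lost without control replicate 2 of untreated cells (0.15, adjusted p = 0.0730) or of 8 h (0.19, adjusted p = 0.0652), and 0.076 ± 0.056 in KD cells (adjusted p = 0.254, and 0.16 with an adjusted p of 0.0292 after quantile normalization). In a fit of only the groups compared the 24 h rise of Tcf3 in KD cells was not called. Tcf4 was scarcer and rose further. In parental cells it went from 3.59 and 3.83 FPKM to 4.68 and 4.92 FPKM and then 7.03 and 6.99 FPKM, a 1.89-fold rise of the mean at 24 h (0.77 ± 0.057, adjusted p = 2.48e-05). Control cells held 4.36 and 3.66 FPKM when untreated, 4.30 and 4.20 FPKM after 8 h and 5.29 and 5.40 FPKM after 24 h, and KD cells 3.30 and 3.17 FPKM, 3.56 and 3.35 FPKM, and 4.16 and 4.30 FPKM. At 24 h these rises of 0.34 ± 0.069 and 0.30 ± 0.069 were called (adjusted p = 0.00167 and 0.00333). At 8 h they were 0.071 and 0.073 and not called, and after quantile normalization 0.25 and 0.26 with adjusted p-values of 0.00412 and 0.00312.

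Tcf3 (chr10:79872259-79896392, minus strand) gathered 5 lamin B1 peaks at 8 h, 1 at the TSS with a score of 127 and 4 spread over 13926 to 23984 bp inside the gene with scores of 50.9 to 105. Untreated cells had none in the gene and 24 h cells a single one at the TSS with a score of 53.0, near the lowest of the list. Its TSS had an ATAC peak at all 3 times (scores of 155, 63.9 and 401). Tcf4, on chromosome 18, lacked a lamin B1 peak throughout and had an ATAC peak at its TSS at all 3, with 5 ATAC peaks in the gene at 24 h. The strongest of those had a score of 631, lay over 200 kb inside the gene and was present at 8 h (score of 129). With lists of equal length it stayed at 24 h, and the 24 h peak at the TSS of Tcf4 (score of 224) was absent.

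Hmga2 was the most abundant member in parental cells at 0 and 8 h and peaked early. Its parental values were 44.2 and 45.7 FPKM, then 87.5 and 88.2 FPKM after 8 h, then 57.7 and 56.8 FPKM after 24 h. The 3 times did not overlap, and the rise at 8 h was 0.95 ± 0.037 (limma adjusted p = 1.95e-05) and the following fall to 24 h -0.61 ± 0.037 (adjusted p = 2.82e-05). At 24 h it stood 0.34 ± 0.037 above untreated cells (adjusted p = 0.000145). Control cells went from 38.1 and 51.5 FPKM to 106 and 107 FPKM and 85.2 and 84.0 FPKM, and KD cells from 38.4 and 39.7 FPKM to 88.4 and 87.0 FPKM and 64.6 and 57.3 FPKM. The rises at 24 h were 0.92 ± 0.11 and 0.63 ± 0.11 (adjusted p = 8.90e-05 and 0.000964). A pseudogene, Hmga2-ps1, has its own row and can share reads with Hmga2, and how far this affects the level of Hmga2 was not tested. Hmga2-ps1 held 13.2 and 14.5 FPKM in untreated parental cells, 40.7 and 38.4 FPKM after 8 h and 22.0 and 19.3 FPKM after 24 h, the same order of times.

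Sox4 rose early and stayed high. In parental cells it went from 36.2 and 36.2 FPKM to 73.1 and 64.1 FPKM after 8 h and 68.3 and 70.01 FPKM after 24 h. All treated libraries lay above the untreated ones, and those of 8 and 24 h overlapped, with differences from untreated cells of 0.90 ± 0.061 (limma adjusted p = 6.52e-05) and 0.92 ± 0.061 (adjusted p = 1.47e-05). Untreated control libraries differed, at 56.6 and 41.7 FPKM, and later ones held 66.8 and 67.0 FPKM after 8 h and 66.6 and 66.4 FPKM after 24 h. The rises in control cells, 0.45 ± 0.13 at both times (adjusted p = 0.0114 and 0.0109), were lost without control replicate 2 of untreated cells (0.24 and 0.23, adjusted p = 0.0517 and 0.0534). KD cells went from 43.9 and 45.7 FPKM to 66.4 and 63.5 FPKM (0.53 ± 0.13, adjusted p = 0.00507) and 65.5 and 54.9 FPKM (0.41 ± 0.13, adjusted p = 0.0153). The 24 h call in KD cells was lost without KD replicate 1 of untreated cells (0.39, adjusted p = 0.0713) or of 24 h (0.29, adjusted p = 0.0948).

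Hmga2 (chr10:119798331-119913525, minus strand) and Sox4 (chr13:29040788-29045582, minus strand) were the members with a lamin B1 peak close to the TSS at all 3 times. The scores at Hmga2 were 74.98, 356 and 252 in the order of time, with the 8 h peak at or above 99.2% of its list. Those of the peak nearest to the TSS of Sox4 were 103, 218 and 188. For both genes the score was highest at 8 h, in the longest list. Hmga2 also had an ATAC peak over its TSS at all 3 times (scores of 149, 123 and 358) and another about 54 kb inside the gene. Sox4 had an ATAC peak over its TSS in untreated cells (score of 53.9) and at 24 h (score of 254), and at 8 h the nearest lay 35498 bp away. As at Snai1, the 0 h ATAC peak was absent with a score of at least 100 and the 24 h peak with lists of equal length. The Sox4 promoter is shown because, in the full lists, ATAC peaks covered all of its 300 bases at 0 and 24 h. It lies on the minus strand of GRCm38.p6 at chr13:28953650-28953949, and capitals mark the Smad element CAGAC, read here on the other strand as GTCTG, of which it holds 2.
Sox4: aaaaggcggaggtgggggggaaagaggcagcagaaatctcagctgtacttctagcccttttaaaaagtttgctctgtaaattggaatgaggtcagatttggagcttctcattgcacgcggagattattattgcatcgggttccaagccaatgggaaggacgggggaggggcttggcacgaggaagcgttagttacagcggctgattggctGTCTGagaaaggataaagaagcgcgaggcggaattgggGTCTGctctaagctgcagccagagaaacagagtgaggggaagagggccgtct

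Whether the members depend on lamin B1 was asked by setting KD against control cells at each time. Most differences were small. The mean of 8 of the 10 members was lower in KD cells at all 3 times, Snai2 and Twist2 being the exceptions. The share of all genes with such a pattern was not counted, so this is no result about the set. Among the 8, Twist1 lay below 1 FPKM and was not tested, and Sox4 was not called at any time. In untreated cells 4 of the 9 members tested were called, 1 higher and 3 lower, in a comparison where 19.7% of all genes were called, 10.6% higher and 9.09% lower. At 8 h 4 of 9 were called (1 higher, 3 lower, beside 35.8% of all genes, 19.3% higher and 16.5% lower), and at 24 h 5 of 9 (1 higher, 4 lower, beside 28.3%, 16.8% higher and 11.5% lower). With quantile normalization the share of all 24 h calls that were higher went from 59.4 to 50.03%. The median difference of the members was -0.12, -0.21 and -0.21 at 0, 8 and 24 h, against -0.0069, 0.0079 and 0.022 for all genes. Of these 13 calls, 12 were lost under at least 1 other setting or with 1 library left out, and the call of Tcf3 at 8 h was kept in all.

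**Figure D4:**
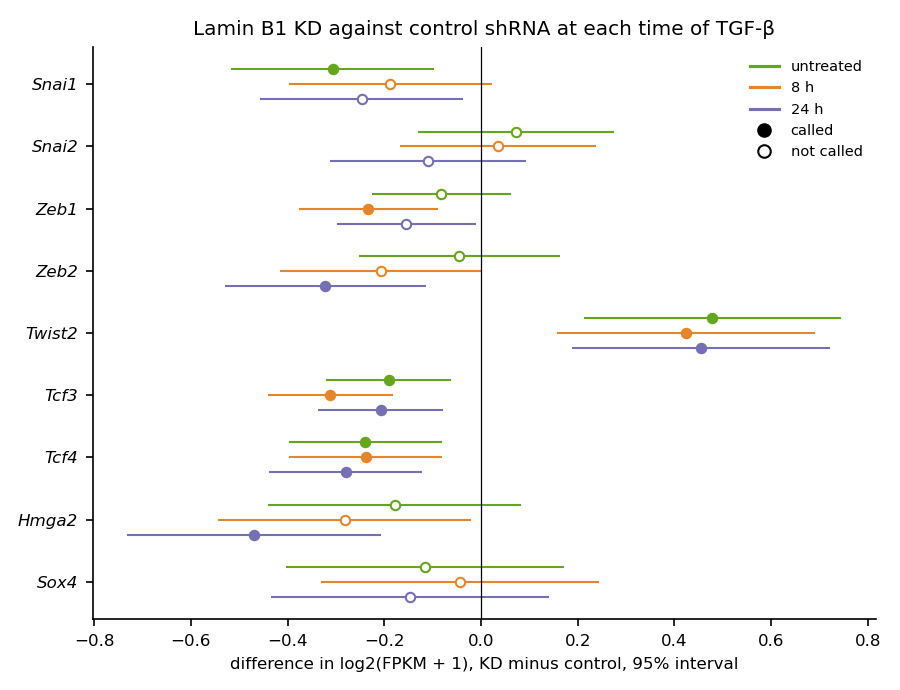
Difference in log2(FPKM + 1) between lamin B1 KD and control cells (x axis, KD minus control) for the 9 members tested (y axis), in untreated cells (green) and after 8 h (orange) or 24 h (purple) of TGF-β. Points are limma estimates from 2 libraries a group, bars their 95% intervals, filled points are called. Twist2 lies right of 0 at all 3 times, and Tcf3 and Tcf4 lie left of it at all 3.

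Twist2 was the member that was higher with less lamin B1. At each time its 2 KD libraries lay above its 2 control libraries, and the ratio of means was 1.49 before treatment, 1.58 after 8 h and 1.60 after 24 h. The differences were 0.48 ± 0.12 (limma adjusted p = 0.0231), 0.42 ± 0.12 (adjusted p = 0.0215) and 0.45 ± 0.12 (adjusted p = 0.0207). Leaving out any 1 of the 4 untreated libraries ended the first call, at adjusted p-values from 0.0656 to 0.129. At 8 h the call was lost without control replicate 1 (adjusted p = 0.0888) or 2 (adjusted p = 0.0873) or KD replicate 2 (0.31, adjusted p = 0.142), and at 24 h without control replicate 1 (adjusted p = 0.0691) or 2 (adjusted p = 0.115) or KD replicate 2 (0.28, adjusted p = 0.0693). The 24 h call was also lost in a fit of only the groups compared. The direction was the same in all of these.

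The E-protein genes were lower in KD cells at all 3 times. Tcf3 held 31.8 and 29.9 FPKM in untreated control against 26.3 and 27.6 FPKM in KD libraries, 35.2 and 35.8 against 28.8 and 28.1 FPKM after 8 h, and 36.8 and 36.0 against 29.7 and 33.1 FPKM after 24 h. The groups did not overlap at any time, and the KD mean was 87.2%, 80.0% and 86.4% of the control mean, with differences of -0.19 ± 0.056 (limma adjusted p = 0.0444), -0.31 ± 0.056 (adjusted p = 0.00340) and -0.21 ± 0.056 (adjusted p = 0.0251). In untreated cells the call was lost with a replicate block (adjusted p = 0.0601) and without control replicate 1 (adjusted p = 0.147) or KD replicate 1 (adjusted p = 0.235) or 2 (adjusted p = 0.108), and at 24 h without control replicate 1 (adjusted p = 0.134) or 2 (adjusted p = 0.0910) or KD replicate 1 (-0.13, adjusted p = 0.0706). The untreated call was also lost with no filter on low values and in a fit of only the groups compared, and the 24 h call in that fit. At 8 h leaving out a library did not end the call. Tcf3 was also the member with 5 lamin B1 peaks at that time, in the longest of the lamin B1 lists, and a link with the KD difference was not tested.

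Tcf4 in KD cells was at 80.7%, 81.2% and 79.1% of the control mean at 0, 8 and 24 h, with differences of -0.24 ± 0.069, -0.24 ± 0.069 and -0.28 ± 0.069 (limma adjusted p = 0.0412, 0.0261 and 0.0176) and no overlap between groups. The untreated call was lost without control replicate 1 (-0.14, adjusted p = 0.130) or KD replicate 1 (adjusted p = 0.137) or 2 (adjusted p = 0.193), the 8 h call without any 1 of the 4 libraries (adjusted p from 0.0653 to 0.139), and the 24 h call without control replicate 1 (adjusted p = 0.0803) or 2 (adjusted p = 0.0958). The untreated and 8 h calls were also lost with no filter on low values, and the untreated and 24 h calls in a fit of only the groups compared. No lamin B1 peak was called at Tcf4.

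The Snail and Zeb genes were called at 1 time each or not at all. Snai1 was lower in untreated KD cells, at 62.5% of the control mean (-0.31 ± 0.091, limma adjusted p = 0.0467), where both groups were near or below 1 FPKM. With no filter on low values it was not called. That call was lost with a replicate block (adjusted p = 0.0646), after quantile normalization (adjusted p = 0.0560) and without control replicate 2 (-0.18, adjusted p = 0.200) or KD replicate 1 (-0.24, adjusted p = 0.249) or 2 (-0.38, adjusted p = 0.0893). At 8 and 24 h it stood at 87.2% and 83.6% of the control mean, with adjusted p-values of 0.143 and 0.0746 and no overlap between groups, and without KD replicate 1 the 24 h difference was called (-0.32, adjusted p = 0.0400). Zeb1 was lower at 8 h (-0.23 ± 0.062, adjusted p = 0.0192), lost without control replicate 1 (-0.17, adjusted p = 0.137) or KD replicate 1 (adjusted p = 0.1003) or 2 (adjusted p = 0.0639).

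Zeb2 was lower at 24 h, at 77.4% of the control mean (-0.32 ± 0.091, limma adjusted p = 0.0294), lost without control replicate 1 (adjusted p = 0.118) or 2 (adjusted p = 0.124) or KD replicate 2 (-0.18, adjusted p = 0.0916). The Zeb2 call was also lost with no filter on low values and in a fit of only the groups compared. Snai2 was not called at any time, with differences of 0.072, 0.035 and -0.11 and 95% intervals of -0.13 to 0.27, -0.17 to 0.24 and -0.31 to 0.092. Hmga2 was lower at 24 h, at 72.0% of the control mean (-0.47 ± 0.11, adjusted p = 0.0172), lost without control replicate 1 (adjusted p = 0.0910) or 2 (adjusted p = 0.0752) or KD replicate 2 (-0.38, adjusted p = 0.0714). In untreated cells the 2 control libraries of Hmga2 and Sox4 were far apart, so that leaving out control replicate 1 gave a difference of -0.39 for Hmga2 (adjusted p = 0.00641) and leaving out replicate 2 one of -0.33 for Sox4 (adjusted p = 0.0477), whereas with both neither was called (adjusted p = 0.309 and 0.566). Sox4 was not called at 8 or 24 h either, with 95% intervals of -0.33 to 0.24 and -0.43 to 0.14. Twist1, not tested, was at 60.0%, 54.3% and 82.3% of the control mean at levels below 1 FPKM.

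Whether the response to TGF-β differed between KD and control cells was tested as the difference of the 2 responses. By limma 0 of 9 members were called at 8 h, beside 4.06% of all genes (2.45% higher, 1.61% lower), and 0 of 9 at 24 h, beside 4.72% (2.73% higher, 1.98% lower), and 0 of these 18 tests reached an unadjusted p under 0.05. Under quantile normalization the higher share of all calls went from 60.4 to 50.6% at 8 h and from 57.96 to 47.95% at 24 h. Zeb2 at 24 h was nearest, with a response smaller by -0.28 ± 0.13 in KD cells (unadjusted p = 0.0594, limma adjusted p = 0.231, 95% interval -0.57 to 0.014). Without KD replicate 1 of 24 h it was called (-0.42, adjusted p = 0.0127), and without control replicate 2 of untreated cells the difference of Hmga2 was called at 8 h (-0.32, adjusted p = 0.0477) and 24 h (-0.50, adjusted p = 0.0127). The intervals for Snai1 were -0.17 to 0.41 at 8 h and -0.23 to 0.35 at 24 h, and those for Twist2 -0.43 to 0.32 and -0.40 to 0.35. For Hmga2-ps1 the smaller 24 h response in KD cells was called (-0.76 ± 0.15, limma adjusted p = 0.0302), and this call was not examined under other settings. At 24 h Hmga2-ps1 was, like Hmga2, lower in KD than in control cells (-0.53 ± 0.10, limma adjusted p = 0.00695). It was not called at 0 or 8 h (0.23 and -0.12).

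Genes that act with the members were counted from lists chosen by function, beside 70.5% of all genes called at 24 h in parental cells, 33.4% higher and 37.1% lower. Their calls were not examined under other settings or with a library left out. The Id genes encode inhibitors that sequester E proteins. At 24 h in parental cells 2 of the 3 tested were lower, Id2 by -2.73 ± 0.18 and Id1 by -2.54 ± 0.070, and 0 were higher. Of 15 mesenchymal genes 12 were higher and 3 lower, with a median of 0.97 against -0.019 for all genes, among them Fn1 (3.06 ± 0.098) and Itga5 (2.58 ± 0.10). Of 18 epithelial genes known as targets of Snail and Zeb repression 9 were tested, of which 4 were lower and 3 higher (median -0.12). Cdh1, which encodes E-cadherin, fell by 1.504 ± 0.050 and the polarity gene Crb3 by 1.60 ± 0.16, while the claudin Cldn4 rose by 3.07 ± 0.17. Among 14 Smads and regulators of Snail stability or induction 10 were higher and 2 lower, with Smad7 (0.97 ± 0.093), Csnk1e (0.88 ± 0.050) and Lats2 (0.67 ± 0.052) the most. Of 12 corepressors and chromatin partners 5 were higher and 2 lower, Suz12 at -0.73 ± 0.042, Kdm1a at 0.64 ± 0.072 and Ajuba at 0.53 ± 0.041. Of 5 tested relatives 3 were higher and 2 lower, with Hmga1 at -1.65 ± 0.081, Sox9 at 0.77 ± 0.061 and Snai3 at -0.68 ± 0.098.

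In KD against control cells at 8 h the counts stand beside 35.8% of all genes called, 19.3% higher and 16.5% lower. The calls of these list genes were not examined under other settings or with a library left out. Of 10 epithelial targets tested 6 were higher in KD cells and 2 lower (median 0.12 against 0.0079 for all genes), with Cdh1 at 0.68 ± 0.10, Epcam at 0.60 ± 0.077 and Cldn4 at -0.77 ± 0.23. Of 12 corepressors and partners 6 were lower and 0 higher (median -0.18), with Ajuba at -0.38 ± 0.042, Ezh2 at -0.32 ± 0.053 and Sin3a at -0.32 ± 0.050. Of 13 mesenchymal genes tested 4 were higher and 2 lower (median -0.042), Acta2 at 0.65 ± 0.10, Sparc at 0.56 ± 0.075 and Itgav at 0.44 ± 0.069. Among the 14 Smads and stability regulators 5 were higher and 2 lower, with Axin2 at 0.61 ± 0.065, Smad6 at 0.42 ± 0.096 and Pak1 at 0.36 ± 0.063. Id2 was higher (0.50 ± 0.086) and Id3 lower (-0.32 ± 0.10), Id1 not being called. Of the relatives Hmga1 was lower (-0.55 ± 0.11) and Snai3 higher (0.27 ± 0.075).

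The genes whose levels ran most closely with a member were taken as a description over the 18 RNA libraries, each table centred on its own mean, among 10843 genes tested in both tables. The libraries share times and treatment, so any gene with the same time course scores high. Snai1 ran closest to Sept9 (Pearson r = 0.995), Junb (0.994) and Abr (0.992), of which Sept9 encodes a septin and Junb an AP-1 subunit. For Zeb1 they were Ncs1 (0.991), Pitpnc1 (0.989) and Fbln2 (0.987), and for Zeb2 Col5a3 (0.983), Lrp12 (0.983) and Gatsl3 (0.982). Snai2 was most like Zfp651 (0.986), B2m (0.981) and Pde8a (0.980), Tcf4 most like Card10 (0.976), Snn (0.963) and Tsc22d1 (0.962), and Tcf3 most like Zfp334 (0.968), 2900097C17Rik (0.939) and Tgif1 (0.938). Hmga2 was nearest to Hmga2-ps1 (0.968), then Parvb (0.956) and Il18rap (0.954), and Sox4 to Pcgf3 (0.953), Vgll4 (0.950) and Rabl2 (0.945). The falling Twist2 ran with Prosc (0.973), Tnfsf12 (0.972) and Tmem25 (0.969). Among the members themselves the closest pairs were Zeb1 with Zeb2 (0.945), Snai2 with Zeb2 (0.915) and Snai1 with Hmga2 (0.902), and Twist2 ran opposite to Snai1 (-0.919).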

How the data were processed

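RNA-seq, lamin B1 ChIP-seq and ATAC-seq files of NMuMG cells were used, and Hi-C was left out. The authors deposited FPKM values per gene and library, and peak lists with a MACS score per peak on mm9, 1 list for each assay and time. The submitters' processing notes name Bowtie, TopHat and Cufflinks, without versions. Neither expression table has a header line, so columns were matched to groups through the table's own name, quoted in the labels, which lists the groups in sequence. The parental columns carry no replicate number and are called library a and b. With FPKM alone the sequencing depth is unknown, and the 2 libraries per group set the precision.

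Values were analysed as log2(FPKM + 1), which understates the change of low genes. Genes with at least 1 FPKM in 2 libraries of a table were tested (11309 parental, 11450 shRNA). Linear models were fitted in limma 3.58.1 (R 4.3.3) to all libraries of a table together, with moderated statistics and an intensity trend, Benjamini-Hochberg adjustment over all tested genes and calls at an adjusted p under 0.05. Where leaving out a library leaves 1 in a group, it is assumed to vary like the other groups. The fits were tested on simulated data. Peaks were placed on genes of the mm9 annotation with a minimum overlap of 1 bp, using Python 3.11.15 (pandas 2.3.3, numpy 2.4.6, matplotlib 3.10.9 for plots). Promoters came from RefSeq (GRCm38.p6), with 32544 distinct ones of 300 bases outside chromosome 18 as background. A gene of another list is named if called and among the 3 most changed of its list at 24 h in parental cells or in KD against control cells at 8 h, and the 3 genes with the highest Pearson r over all RNA libraries are named for each member. A gene that this rule would name is not reported here. The members and lists were chosen with earlier results of these data known. Other settings tried were a pseudocount of 0.1, all genes without the filter, quantile normalization, the replicate number as a block, fits restricted to the compared groups, each library left out in turn, a score of at least 100, peak lists cut to equal length, windows of 500 bp around the TSS or 10 kb around the gene, and an overlap of 200 bp.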

Additional observations from a re-analysis of the deposited data

Results flagged for a closer look

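The response of Hmga2-ps1, the pseudogene that can share reads with Hmga2, differed between KD and control cells at 24 h of TGF-β by -0.76 on the log2(FPKM + 1) scale (limma, adjusted p = 0.0302, test of the difference of the responses). Its control libraries went from 9.45 and 10.7 FPKM to 41.4 and 40.3 FPKM and its KD libraries from 11.02 and 12.9 FPKM to 31.2 and 25.2 FPKM. The same difference for Hmga2 was -0.29 and was not called (adjusted p = 0.315), and how many reads the 2 rows share was not tested. Whether the call of Hmga2-ps1 holds under other settings was not examined.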

How the results depend on the processing

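Of 68 called differences of the members, among 111 tested, 49 stayed called under all settings tried, 19 were lost under at least 1 and 0 turned direction. Of the lost calls 12 were KD against control differences. The number of members called there, 4 in untreated cells, was 2 with a replicate block, 1 in a fit of the groups compared only, 1 with no filter and 0 to 3 with 1 library left out. At 8 h it was 4, against 7 in the fit of the groups only and 1 to 2 with a library left out, and at 24 h it was 5, against 1 and 0 to 5. For the difference of responses 0 members were called, and 0 to 1 with a library left out, at both times. Over all genes the KD against control counts were 2254, 4104 and 3241 at 0, 8 and 24 h, against 1109, 5655 and 909 in the fit of the groups only, and from 650 to 2497, 2330 to 2432 and 1199 to 4476 with a library left out. The differences of responses gave 465 genes at 8 h (724 with the groups only, 284 with a replicate block, 25 to 1486 with a library left out) and 540 at 24 h (86 with the groups only, 85 to 2696 with a library left out). The cause of these shifts was not tested.

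The labels do not say whether shRNA libraries with the same replicate number were prepared together. The correlation of replicate differences between groups ran from -0.135 to 0.368 over 15 pairs of groups, highest between control and KD cells at 24 h, which does not decide it. The block gave 2140, 4003 and 3059 genes called in KD against control cells at 0, 8 and 24 h. With crossed numbers, chosen after seeing the data, 2 members and 2019 genes were called at 0 h and 4 members and 3952 genes at 8 h. No paired analysis was possible because the parental columns carry no replicate number, as far as the parental table goes.

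Signs turned only for differences that were not called. Quantile normalization gave -0.015 for Twist2 between 8 and 24 h in parental cells and 0.16 for Snai2 at 8 h in KD cells, and a pseudocount of 0.1 gave 0.052 and 0.065 for the difference of responses of Twist2 at 8 and 24 h. With a library left out, parental values ran from -0.36 to 0.012 (Twist1, 8 h), -0.079 to 0.11 (Sox4, 8 to 24 h), -0.092 to 0.28 (Twist1, 8 to 24 h) and -0.082 to 0.19 (Twist2, 8 to 24 h). Responses at 8 h ran from -0.073 to 0.11 (Snai2, control), -0.028 to 0.17 (Tcf4, control) and -0.10 to 0.067 (Snai2, KD). KD against control differences in untreated cells ran from -0.39 to 0.034 (Hmga2), -0.014 to 0.16 (Snai2), -0.33 to 0.10 (Sox4) and -0.092 to 0.0025 (Zeb2), and at 8 h from -0.058 to 0.13 (Snai2). Differences of responses at 8 h ran from -0.32 to 0.11 (Hmga2), -0.0061 to 0.24 (Snai1), -0.13 to 0.055 (Snai2), -0.14 to 0.29 (Sox4), -0.098 to 0.10 (Tcf4) and -0.17 to 0.060 (Twist2), and at 24 h from -0.065 to 0.19 (Snai1), -0.25 to 0.18 (Sox4), -0.093 to 0.059 (Tcf3), -0.14 to 0.059 (Tcf4) and -0.20 to 0.16 (Twist2).

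With a score of at least 100, 3 members had a lamin B1 peak at 24 h (6 in the full list), and 3 had an ATAC peak in untreated cells (7) and 3 at 8 h (6). Within 500 bp of the TSS 3 had an ATAC peak at 8 h, beside 25% of all placed genes, and with lists of equal length 5 had one at 24 h (9). For the score and equal-length settings the share of all genes was not counted. Low FPKM and unknown depth limit what can be said of Twist1 and untreated Snai1.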
